A study of Mus musculus with 6 samples.

Results

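Chromatin remodellers other than SWI/SNF, together with the subunits of the deacetylase complex NuRD, were followed in mouse bone marrow LSK cells whose libraries were labelled Arid2 knockout or control. LSK cells lack lineage markers, carry Kit and Sca1 on their surface, and include the haematopoietic stem cells. The set was chosen by name, with earlier results of these data known. It was a list of 38 genes of the CHD, ISWI, INO80/SRCAP and NuRD families. Of these, 37 were among the 24063 symbols of the count table and 36 had enough reads to be tested; Smarca1 fell below the minimum count, and Srcap is not analysed here. The knockout group was Arid2fl/fl:MxCre+ (3 libraries) and the control group Arid2 wild type with MxCre+ (Arid2wt in the titles, 3 libraries), both of C57/BL6 background. All mice received pIpC at 6 to 8 weeks of age, and cells were sorted 6 weeks afterwards. Both groups therefore carry the Cre transgene, driven by the interferon-responsive Mx1 promoter, and both were exposed to pIpC, which induces interferon. The promoter is not restricted to blood cells.

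Chromatin remodellers are ATP-driven motors that slide, space, evict or edit nucleosomes. SWI/SNF, to which Arid2 belongs as a subunit of its PBAF form, is 1 of several families. CHD and ISWI motors space and assemble nucleosomes, and INO80, SRCAP and EP400 complexes exchange the histone variant H2A.Z. NuRD joins a CHD3 or CHD4 motor to the deacetylases HDAC1 and HDAC2 around MTA scaffolds, and uses either MBD2, which binds methylated DNA, or MBD3. In mice, Chd4 is known to be needed for maintenance of haematopoietic stem cells.

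Whether the 3 libraries of a group stand for separate mice is not in the labels, and a p-value here covers no more than library-to-library spread. Depth was 12408966 to 28185678 counted reads. Arid2 itself had 163, 150.2 and 155 CPM (counts scaled to a common library size) in knockout replicates 1 to 3 and 165, 154 and 148 CPM in control replicates 1 to 3. Its levels overlapped, with a log2 fold change of 0.00 (SE 0.06; adjusted p in edgeR 0.991). A count over the whole gene cannot show whether the floxed part is missing, so the libraries are called knockout and control by their labels alone, and so is every direction given here. Xist and Y-linked reads marked all 3 knockout libraries and control replicate 2 as female (at least 1916 CPM of Xist) and control replicates 1 and 3 as male (at most 11.9 CPM). Sex thus differs between the groups, and control replicate 2 is the 1 female control. Of the genes of the sort gate, Kit had 446, 426 and 445 CPM in the knockout libraries and 524, 493 and 655 CPM in the controls, lower without overlap but not past the test (log2 fold change -0.34, edgeR adjusted p = 0.0814). Ly6a, which encodes Sca1, had 12.4 to 22.3 CPM and was lower in the knockout libraries (-0.56, adjusted p = 0.0378, and 0.344 with sex in the model).

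Most remodeller genes had nearly the same level in both groups. With the group alone in the model, 4 of 36 members were lower in the knockout libraries (Mta1, Mta3, Hdac2 and Chd6) and 1 was higher (Cecr2), while 31 did not pass the test (edgeR, Benjamini-Hochberg adjusted p under 0.05 over all 13679 genes). Over all genes tested 8.42% were called, 3.85% higher and 4.58% lower, against 13.9% of the members. Of the 4 genes that fell, 3 encode NuRD subunits. The changes were small: 35 of 36 members had an absolute log2 fold change under 0.5, and 16 had one under 0.1. The median log2 fold change of the members was -0.05 (quartiles -0.13 and 0.09), against 0.00 over all genes tested (quartiles -0.14 and 0.15). Negative values were found for 25 of 36 members (69.4%), against 50.4% of all genes. An unadjusted p under 0.05 was reached by 11 members (30.6%), compared with 24.9% of all genes. The 3 libraries of each group did not overlap for 18 members (50% of those tested), compared with 31.2% of all genes; in 11 of these the knockout libraries were lower and in 7 higher. Among the 6712 genes at or above the lowest level of the members other than Cecr2, 7.75% were called and 31.1% did not overlap. Of those genes 49.4% were negative, and the quartiles of their log2 fold changes were -0.09 and 0.11. Their median absolute log2 fold change was 0.1, against 0.13 for the members. The members were chosen with earlier results of these data known, so these shares describe the list and test nothing.

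**Figure D1:**
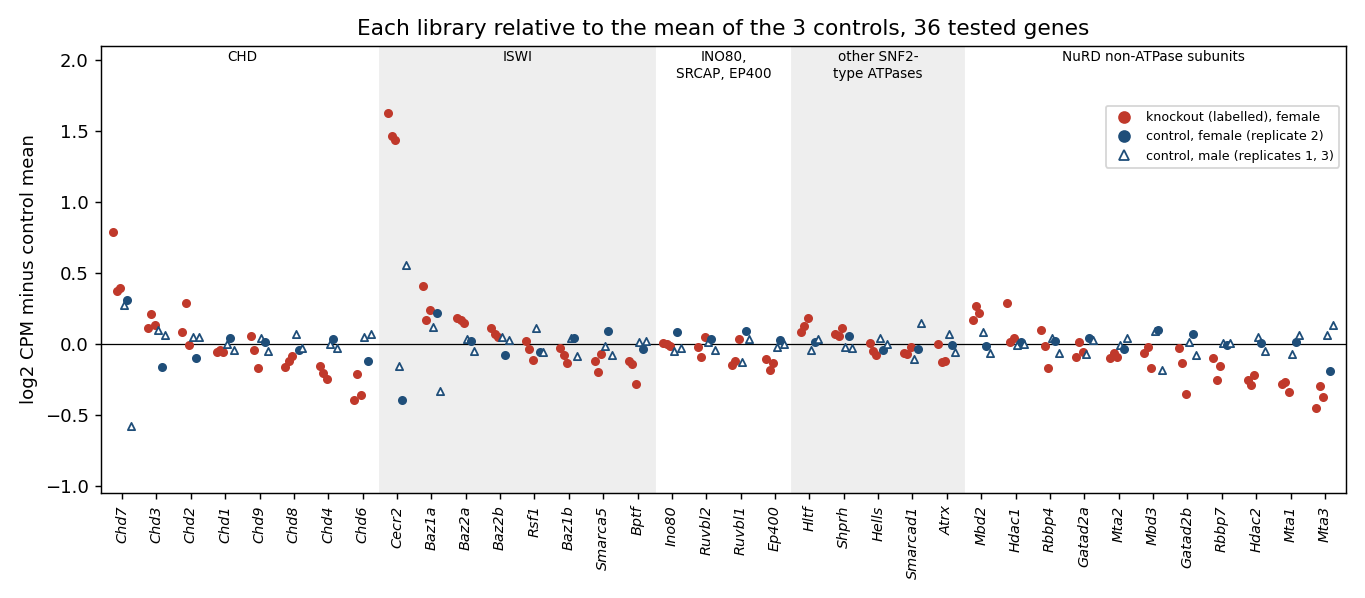
Level of each of the 36 tested genes in every library, as log2 CPM minus the mean log2 CPM of the 3 controls, grouped by family and sorted by fold change. Red circles are the knockout libraries, the blue circle is the female control and open triangles are the male controls; most points lie within 0.5 of 0, and Cecr2 stands apart with a log2 fold change of 1.49.

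No call survived the loss of a knockout library or a sex term. With knockout replicate 1, 2 or 3 left out, 0 members were called by edgeR, with 10, 9 and 10 members at an unadjusted p under 0.05. Without control replicate 1 the sole call was Mta1, without control replicate 2 the calls were Chd6 and Mta3, and without control replicate 3 they were Hdac2, Mta1 and Cecr2. The direction of all 5 held in all 15 alternative fits, though libraries that do not overlap fix that direction when libraries are left out. DESeq2 called the same 5 genes and added Chd4 (lower) and Mbd2 (higher). With sex in the edgeR model, 0 of 36 members and 0.314% of all genes were called, and the smallest adjusted p of a member was 0.165. At an unadjusted p under 0.05 that fit had 7 members (Chd3, Chd4, Smarca5, Hdac2, Mta1, Mbd2 and Cecr2), or 19.4%, beside 11.9% of all genes.

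Within NuRD, 3 of 11 non-motor subunit genes were lower, Mta1, Mta3 and Hdac2, and 8 did not pass the test. Over all genes tested 4.58% were lower. Mta1, on which the deacetylases assemble, lies on chromosome 12 (mm10, 113098278 to 113137206, plus strand). It had 181, 183 and 174 CPM in the knockout libraries and 209.9, 222 and 230.1 CPM in the controls. Every knockout library was below every control, and Mta1 fell by 18.7%, a log2 fold change of -0.30 (SE 0.06, n = 3 each; edgeR adjusted p = 0.0244). Its log2 fold change with the sex term was -0.31 (SE 0.09, adjusted p = 0.239), and the female control lay between the male ones. Mta3, the least abundant of the scaffolds (chromosome 17, 83706163 to 83821516, plus strand), had 52.7, 58.6 and 55.6 CPM in the knockout libraries and 75.1, 63 and 79.1 CPM in the controls. The groups did not overlap, and the log2 fold change was -0.38 (SE 0.09, adjusted p = 0.0442). The female control, at 63 CPM, was the lowest of the 3 controls, and with the sex term Mta3 had -0.18 (SE 0.10, adjusted p = 0.533). Limma-voom did not call Mta3 (adjusted p = 0.0606). Mta2, the most abundant scaffold per length, had 297, 303 and 298 CPM against 316, 309.6 and 327 CPM, without overlap but with a log2 fold change of only -0.09 (adjusted p = 0.385).

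Of the deacetylase genes, Hdac2 fell and Hdac1 did not pass the test. Hdac2 (chromosome 10, 36974544 to 37001889, plus strand) had 131, 128 and 135 CPM in the knockout libraries and 162, 157 and 151 CPM in the controls. The groups did not overlap, and it fell by 16.2% on the linear scale (-0.25 in log2, SE 0.06, n = 3 each; edgeR adjusted p = 0.0353), with -0.26 under the sex term (SE 0.09, adjusted p = 0.304). Hdac1, its close relative in the same complex, had 100, 82.6 and 84.1 CPM against 81.1, 82.5 and 81.6 CPM. The groups barely failed to overlap, knockout replicate 1 stood furthest above the controls, and the log2 fold change of 0.12 did not pass the test (adjusted p = 0.405).

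Neither methyl-binding subunit gene passed the test in edgeR. Mbd2 had 153, 164 and 158 CPM in the knockout libraries and 144, 135 and 130 CPM in the controls. All knockout libraries exceeded all controls, with a log2 fold change of 0.22 (SE 0.06) that edgeR did not call (adjusted p = 0.0728) and DESeq2 did (adjusted p = 0.0493). With the sex term it was 0.23 (SE 0.10, adjusted p = 0.401). Mbd3, which does not bind methylated DNA strongly, overlapped between the groups, at 176 ± 9.4 against 188 ± 20.1 CPM (SD, n = 3 each), a log2 fold change of -0.09.

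Of the histone-binding subunits, Rbbp7, which is X-linked, had 285, 256 and 274 CPM against 307, 303 and 306 CPM. The 3 controls lay within a few CPM of each other whatever their sex, and every knockout library was below them (log2 fold change -0.17, SE 0.06, edgeR adjusted p = 0.132). Rbbp4 was even between the groups, at 336 ± 30.4 and 343 ± 13.4 CPM (SD, n = 3 each; log2 fold change -0.03). The bridging subunits Gatad2a and Gatad2b, which tie the methyl-binding subunit to the motor, had log2 fold changes of -0.05 and -0.16 and overlapped between the groups. Transcripts of the 11 listed non-motor subunit genes summed to 1810 to 1908 CPM in the knockout libraries and 1972 to 2015 CPM in the controls. This sum of RNA does not measure the amount of the complex.

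**Figure D2:**
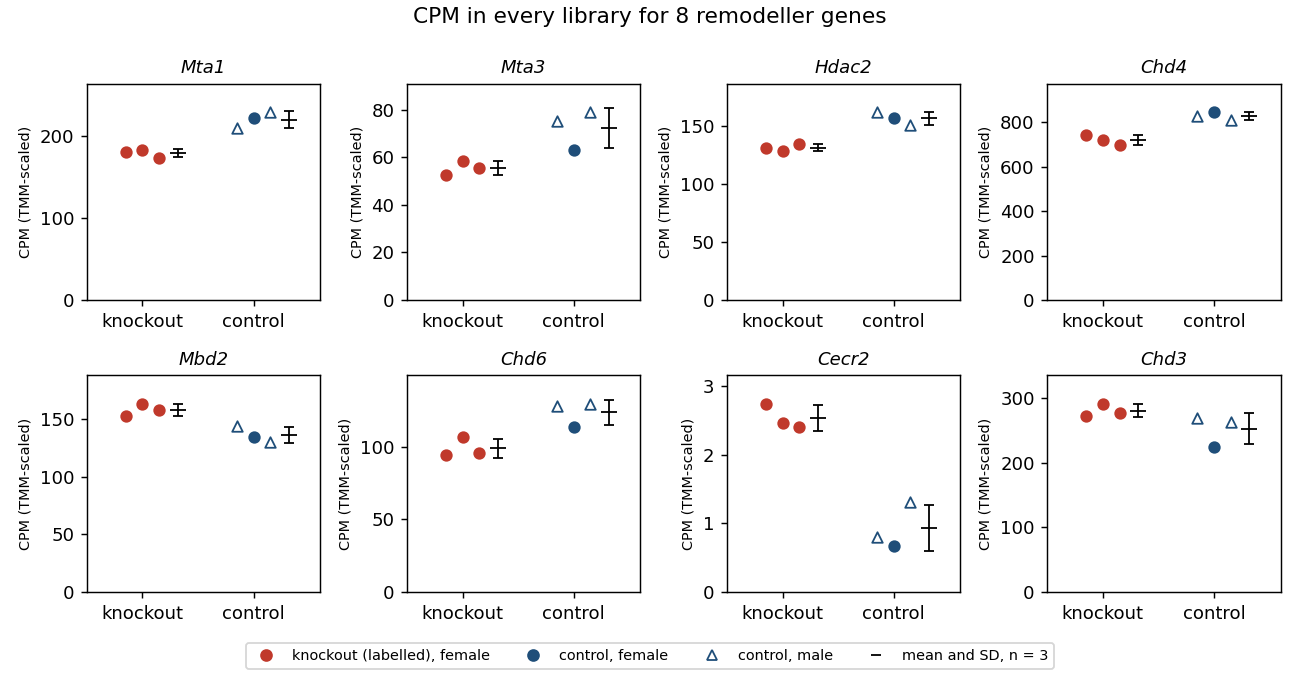
TMM-scaled CPM in each library for the 5 called genes (Mta1, Mta3, Hdac2, Chd6 and Cecr2) and for Chd4, Mbd2 and Chd3; axes start at 0, and the cross with bars gives the mean and SD of 3 libraries. The knockout points lie below all controls for Mta1, Mta3, Hdac2, Chd4 and Chd6, and above them for Mbd2, Cecr2 and Chd3.

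The CHD motors gave 1 decrease among 8 tested, where 4.58% of all genes were lower. A single call among so few genes says little about the family. Chd4, a motor of NuRD, was the most abundant member by reads. It had 744, 719 and 696 CPM in the knockout libraries and 826, 846 and 811 CPM in the controls, with no overlap. The log2 fold change of -0.20 (SE 0.06) missed the threshold in edgeR (adjusted p = 0.0942) and passed in DESeq2 (adjusted p = 0.0316), and was -0.23 with the sex term (SE 0.09, adjusted p = 0.391). Chd3, the alternative NuRD motor, had 272, 290.9 and 276 CPM against 269, 225 and 263 CPM. Knockout libraries were above controls, by little over the male controls and by more over the female one. The log2 fold change was 0.15 by group alone (adjusted p = 0.292) and 0.32 with the sex term (SE 0.09, adjusted p = 0.224).

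Chd6, a large CHD motor of the subfamily that also holds Chd7, Chd8 and Chd9, lies on chromosome 2 (160946978 to 161109075, minus strand). It fell by 20%, or -0.32 in log2 (SE 0.08, n = 3 each; edgeR adjusted p = 0.0415). Its levels were 94.2, 107 and 96.1 CPM against 128, 114 and 130 CPM. The groups did not overlap, the female control was the lowest control, and the value with the sex term was -0.20 (SE 0.10, adjusted p = 0.479). Chd7, a motor that binds enhancers, had 104, 77.9 and 79.2 CPM against 72.9, 74.5 and 40.2 CPM. Control replicate 3 was far below the other controls, the log2 fold change of 0.47 carried an SE of 0.22, and it did not pass (adjusted p = 0.224). Chd8 (193, 198 and 203 against 226, 209 and 212 CPM; log2 fold change -0.12) and Chd1 (131, 132 and 131 against 136, 141 and 133 CPM; -0.05) were lower in every knockout library without passing the test. Chd2 and Chd9 overlapped between the groups, at 0.13 and -0.05. Exons of Chd2 share 2628 bases with the neighbouring symbol 1810026B05Rik on the same strand, so its reads are uncertain.

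The 4 genes below were picked from those lower in all knockout libraries and with an entry in the RefSeq promoter table (GRCm38.p6). Each is shown by the 250 bases before its start. The regulatory sequence of a NuRD scaffold, deacetylase and motor can thus be compared with that of Chd6. Others that meet these terms, such as Chd8 and Bptf, are not shown, and Chd4 was not called by edgeR. Of the 37 measured members, 27 had an entry used here. Capitals mark matches to the motifs searched on both strands.
Mta1, chr12:113098028-113098277, plus strand: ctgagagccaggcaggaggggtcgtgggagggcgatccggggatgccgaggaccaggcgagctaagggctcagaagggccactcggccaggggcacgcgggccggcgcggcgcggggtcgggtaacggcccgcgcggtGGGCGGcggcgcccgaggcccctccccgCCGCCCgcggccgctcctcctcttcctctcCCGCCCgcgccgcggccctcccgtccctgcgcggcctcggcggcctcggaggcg
Hdac2, chr10:36974294-36974543, plus strand: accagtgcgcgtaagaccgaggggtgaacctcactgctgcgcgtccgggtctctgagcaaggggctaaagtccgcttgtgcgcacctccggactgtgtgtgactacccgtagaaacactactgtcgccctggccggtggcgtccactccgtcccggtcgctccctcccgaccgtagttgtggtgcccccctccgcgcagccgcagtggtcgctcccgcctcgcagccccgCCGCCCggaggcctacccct
Chd4, chr6:125095731-125095980, plus strand: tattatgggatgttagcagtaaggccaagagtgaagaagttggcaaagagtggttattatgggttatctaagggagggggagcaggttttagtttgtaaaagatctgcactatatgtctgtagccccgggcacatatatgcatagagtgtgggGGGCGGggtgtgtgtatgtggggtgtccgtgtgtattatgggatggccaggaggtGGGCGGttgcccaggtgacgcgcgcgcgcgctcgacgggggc
Chd6, chr2:161109087-161109336, minus strand: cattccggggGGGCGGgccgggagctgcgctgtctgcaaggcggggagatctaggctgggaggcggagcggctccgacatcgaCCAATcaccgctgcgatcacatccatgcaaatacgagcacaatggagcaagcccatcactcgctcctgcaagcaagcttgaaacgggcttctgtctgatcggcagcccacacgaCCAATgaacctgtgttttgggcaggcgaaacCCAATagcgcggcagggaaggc

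The 4 windows differ in composition. That of Mta1 is 80.8% G and C with 39 CpG dinucleotides and 3 GC boxes (GGGCGG, the SP1 motif, read as CCGCCC on the other strand). That of Hdac2 is 68.8% G and C with 27 CpG and 1 GC box, and that of Chd4 54% with 12 CpG and 2 GC boxes. Chd6 (61.6%, 19 CpG) has 1 GC box and 3 CCAAT boxes, the motif of NF-Y. Among the 27 member windows, 85.2% hold a GC box and 55.6% a CCAAT box, compared with 32.7% and 33.8% of all 32851 promoter entries, which include genes of every kind. Member windows had a median of 64% G and C, against 52.4% over all entries. The other motifs searched were TATAAA (11.1% of member windows, 12.4% of all), CCGGAAG for ETS factors (3.7% and 6.91%), the NRF1 motif (0% and 0.782%), AAGATGGC for YY1 (0% and 1.56%), TGACGTCA, the cyclic AMP element (3.7% and 1.55%), and CACGTG, the E box (7.41% and 6.02%); no motif contains another. These matches describe letters in the windows, and no test linked them to expression.

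Among ISWI motors and their partners, 1 of 8 tested genes was called, where 8.42% of all genes were. Here too a single call says little about the family. Cecr2, which encodes the bromodomain partner of ISWI motors in the CERF complex, rose from a very low level (chromosome 6, 120666369 to 120771190, plus strand). It had 52, 61 and 30 reads in the knockout libraries and 13, 19 and 19 in the controls, that is 2.75, 2.46 and 2.41 CPM against 0.799, 0.675 and 1.31 CPM. The groups did not overlap, and the fitted difference was 1.49 in log2 (SE 0.32, n = 3 each; edgeR adjusted p = 0.0283). With the sex term it was 1.90 (SE 0.46, adjusted p = 0.165), and without single libraries it ran from 1.28 to 1.79. At these counts a library's value rests on 13 to 61 reads.

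The ISWI motor Smarca5 (SNF2H) overlapped between the groups, at 138 ± 5.8 against 151 ± 8.7 CPM (SD, n = 3 each), with a log2 fold change of -0.13 by group alone and -0.22 with the sex term (SE 0.09, adjusted p = 0.392). Its relative Smarca1 (SNF2L), which is X-linked, was barely detected, with 1, 7 and 6 reads in the knockout libraries and 14, 12 and 9 in the controls, and was not tested. Baz2a, the partner of SNF2H in the nucleolar silencing complex NoRC, had 199, 197 and 193 CPM against 179, 177 and 169 CPM. The knockout libraries were above all controls, with a log2 fold change of 0.17 (SE 0.06, edgeR adjusted p = 0.107). Bptf, the large subunit of NURF that reads methylated histone H3, went the other way, at 227, 223 and 202 CPM against 249, 241 and 251 CPM (log2 fold change -0.18, SE 0.06, adjusted p = 0.121). Baz1a, the partner of SNF2H in ACF and the most abundant ISWI gene per length, had 317, 269 and 282 CPM against 260, 278 and 189.7 CPM. Control replicate 3 was the lowest library, control replicate 1 was also below every knockout library, and the female control lay among them. The log2 fold change was 0.25 (SE 0.13, adjusted p = 0.292), 0.06 with the sex term and 0.10 without control replicate 3. Baz1b, Baz2b and Rsf1 overlapped between the groups, with log2 fold changes of -0.09, 0.08 and -0.04.

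Log2 fold changes of the INO80 and EP400 genes ran from -0.14 to -0.01, the narrowest range of any family. This family also had the fewest genes tested, and a range over few genes tends to be narrow. Of these genes 0 of 4 were called by edgeR (1 with an unadjusted p under 0.05, and 0 by DESeq2). Ep400, the motor of the TIP60 acetyltransferase complex, had 280.4, 266 and 275 CPM against 296, 308 and 301 CPM. All knockout libraries were below the controls, by a log2 fold change of -0.14 (SE 0.06, adjusted p = 0.168). Ino80 had the fold change nearest to 0 of all members, at 96, 95.3 and 94.8 CPM against 92.3, 101 and 93.5 CPM, and the 95% interval of its log2 fold change ran from -0.14 to 0.13. The AAA+ ATPases shared by these complexes were also close: Ruvbl2, the most abundant of the family per length, had 184, 175 and 193 CPM against 188, 191 and 181 CPM (log2 fold change -0.02), and Ruvbl1 had 67.5 ± 4.7 against 71.3 ± 5.5 CPM (SD, n = 3 each; -0.08).

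The 5 remaining SNF2-type ATPases were not called by edgeR or DESeq2, and 0 of them had an unadjusted p under 0.05 in edgeR. Atrx, the X-linked motor that deposits histone H3.3 at telomeres and repeats, had 399, 367 and 368 CPM against 420.3, 398 and 384 CPM (log2 fold change -0.08, SE 0.07). Its female control, at 398 CPM, lay between the male ones. Hltf, a fork-remodelling ubiquitin ligase, was higher in every knockout library, at 69.2, 71.4 and 74.1 CPM against 63.4, 65.8 and 67 CPM (log2 fold change 0.13, edgeR adjusted p = 0.226). Hells, which supports DNA methylation of repeats, Smarcad1, which acts behind replication forks, and the Hltf relative Shprh had log2 fold changes of -0.04, -0.06 and 0.07.

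The ratio of paralogous genes was compared per length of exons within each library, where scaling between libraries cancels. Some pairs are alternative subunits of a complex, such as Mbd2 and Mbd3. Others are related genes only, such as Chd7 and Chd8, so a ratio does not measure the choice of a subunit. Of 13 ratios, 7 separated the groups without overlap. Of all single genes 31.2% did so, and the share over other gene pairs was not computed. Each had an exact two-sided permutation p of 0.1, the smallest that 3 against 3 libraries can give, and 0.186 after adjustment over the 13. The Chd4 to Chd3 ratio was 2.88, 2.6 and 2.65 in the knockout libraries and 3.23, 3.96 and 3.24 in the controls, a log2 difference of -0.35 (-0.55 against the female control). The Mbd3 to Mbd2 ratio was 1.89, 1.82 and 1.7 against 2.24, 2.4 and 2.05, a log2 difference of -0.30 (-0.41 against the female control). The Hdac1 to Hdac2 ratio was 0.989, 0.837 and 0.811 against 0.649, 0.683 and 0.702, a log2 difference of 0.37 (0.36). In each knockout library these 3 ratios were shifted towards Chd3, Mbd2 and Hdac1. For Chd4 to Chd3 and Hdac1 to Hdac2, both single genes already separated the groups, in opposite directions. The same holds for Chd7 to Chd8, given below. Such ratios had to separate, so they restate the single-gene values and add no support.

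Both scaffold ratios separated the groups too. Mta2 to Mta1 was 1.24, 1.25 and 1.3 against 1.14, 1.06 and 1.08 (log2 difference 0.21, and 0.26 against the female control), and Mta2 to Mta3 was 6.99 ± 0.29 against 5.75 ± 0.56 (SD, n = 3 each; 0.29, and 0.13). Outside NuRD, Baz1a to Baz1b (log2 difference 0.35) and Chd7 to Chd8 (0.64) also separated the groups, with control replicate 3 the lowest library in both; against the female control they were 0.18 and 0.29. The 6 other ratios overlapped, with log2 differences from -0.18 (Chd1 to Chd2) to 0.14 (Rbbp4 to Rbbp7). Ratios that share a gene, such as both with Mta2, are not independent.

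**Figure D3:**
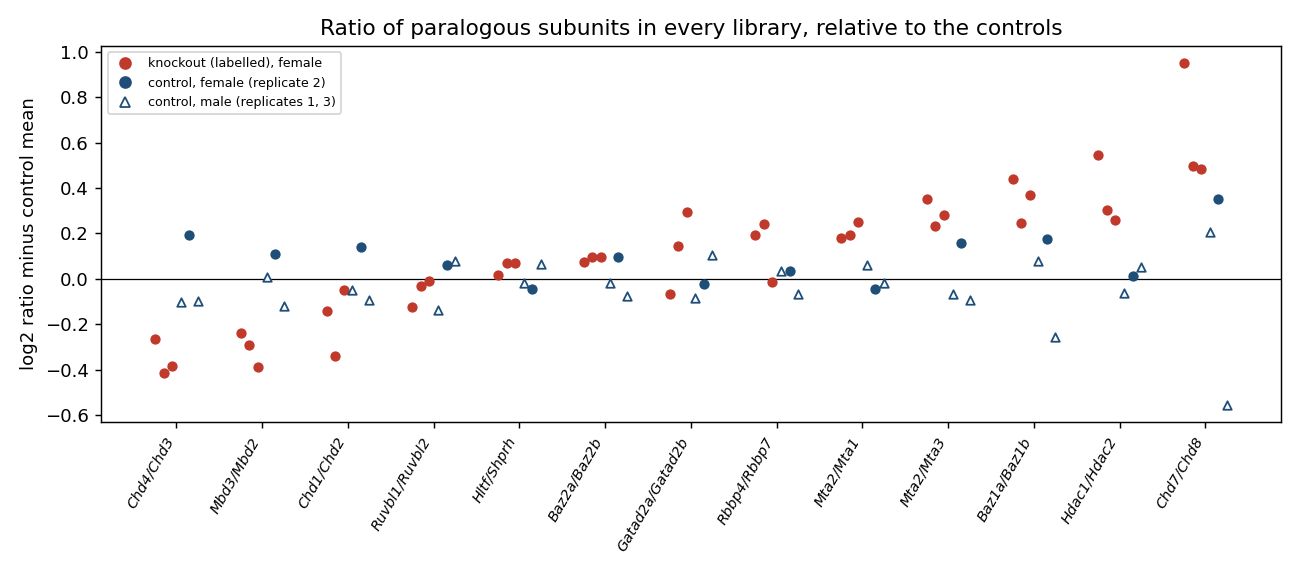
Ratio of paralogous genes per length of exons in every library, as the log2 ratio minus the mean of the 3 controls, sorted by the difference between the groups. Chd4/Chd3 and Mbd3/Mbd2 lie below all controls in the 3 knockout libraries, and Mta2/Mta1, Mta2/Mta3, Baz1a/Baz1b, Hdac1/Hdac2 and Chd7/Chd8 lie above them.

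Per length, the most abundant members were mostly NuRD genes. Rbbp7 had a mean of 99.2 CPM per kilobase of exons over the 6 libraries, Chd4 96.5, Mbd3 91.6, Mta2 75.3 and Mta1 64.4, with Ruvbl2 at 63.9. Rbbp7 (88 to 106 over libraries), Chd4 (86.8 to 106) and Mbd3 (82.9 to 101) overlapped, so their order is not resolved. The other CHD motors were well below Chd4, from 31.5 for Chd3 to 5.43 for Chd7. Within ISWI the order began with Baz1a (37.1) and Baz1b (26.4), and Smarca5 had 18.6. Ino80 had 14, Ep400 20.6, Atrx 17.9 and Hells 12.6. At the low end were Gatad2b (2.99), Cecr2 (0.101) and Smarca1 (0.0742). The lengths are those of all annotated exons joined, which understates genes with long exons that these cells do not use.

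**Figure D4:**
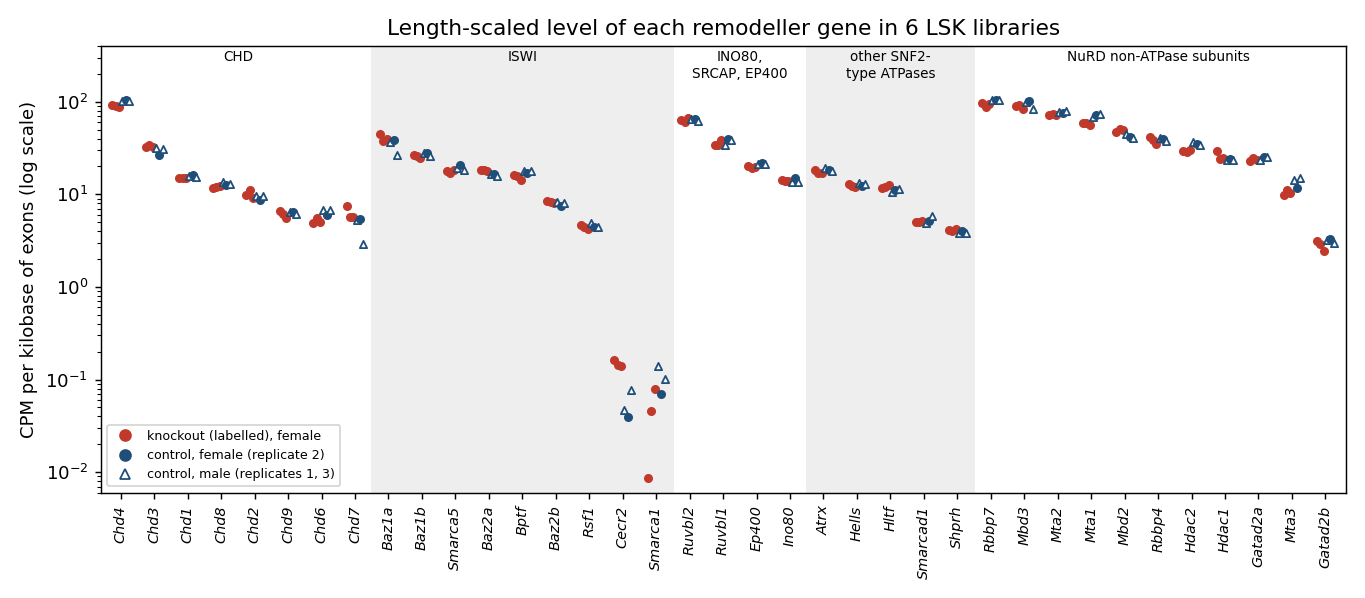
CPM per kilobase of exons for the 37 measured genes in each of the 6 libraries, on a log axis, grouped by family and sorted within each. Rbbp7, Chd4 and Mbd3 are near 100, most genes lie between 3 and 100, and Cecr2 and Smarca1 lie near 0.1, where each point rests on few reads.

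The fold changes of the called genes differed in how they stood with the sex term. Mta1 and Hdac2 had nearly the same log2 fold changes with it (-0.31 and -0.26) as without it (-0.30 and -0.25). That of Cecr2 was larger (1.90, from 1.49), and those of Mta3 and Chd6 were smaller (-0.18 and -0.20, from -0.38 and -0.32). Uncalled Chd4 and Mbd2 stayed level (-0.23 and 0.23), Chd3 and Smarca5 became larger (0.32 and -0.22), and Baz1a and Chd7 smaller (0.06 and 0.23). Over the 36 members, 34 had the same sign in both fits, and the exceptions, Hells and Rsf1, were at 0.00 and 0.01 with the sex term. Each value with the sex term compares the knockout libraries with control replicate 2 alone, and its SE was 0.08 or more for each member.

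**Figure D5:**
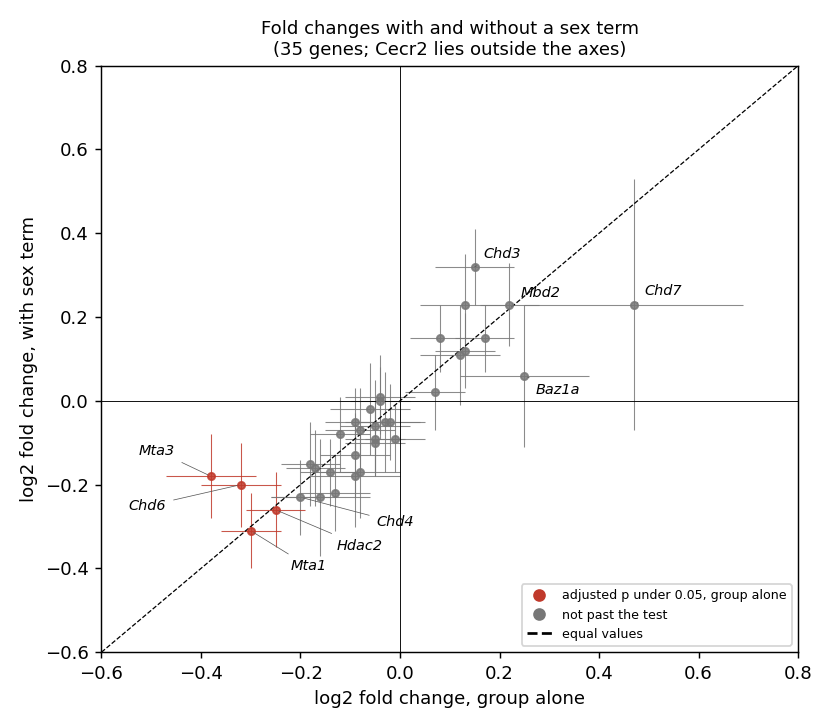
Log2 fold change with the sex term against that by group alone for 35 tested genes, with SE bars; the dashed line marks equal values and red points are genes called by group alone. Mta1 and Hdac2 lie on the line, Mta3 and Chd6 above it at smaller decreases, and Cecr2 is at 1.49 and 1.90, outside the axes.

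Few other subunits, partners and substrates of the same complexes changed. Of 76 such genes tested, 0 were higher and 2 lower (edgeR; at an unadjusted p under 0.05, 1 was positive and 6 negative), which is 2.63% against 8.42% of all genes. DESeq2 also called Bcl6 (higher) and Zfpm1 (lower). The median log2 fold change was -0.04, with 51 of 76 negative, where 50.4% of all genes were negative. Both genes that fell belong to partners of Hells and Atrx (10 tested, 8 not past the test). Cdca7, whose protein recruits Hells to DNA, had 185, 179.6 and 177 CPM against 242, 246 and 230.2 CPM, with a log2 fold change of -0.41 (SE 0.06, adjusted p = 0.0068) and -0.45 with the sex term. H3f3b, which encodes the histone H3.3 that Atrx helps to deposit, had 581, 571 and 609.7 CPM against 734, 687 and 775 CPM (log2 fold change -0.32, SE 0.07, adjusted p = 0.0334; -0.23 with the sex term). Cdca7 was called whichever single library was left out, H3f3b only without control replicate 2, and neither with the sex term.

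In the other lists 0 genes were called by edgeR. Of 12 INO80 subunit genes, Nfrkb had the smallest p (log2 fold change -0.23, edgeR adjusted p = 0.0868), and the list median was -0.07. Of 16 SRCAP and TIP60 genes, Trrap, the scaffold of acetyltransferase complexes, had -0.15 (0.178), with a median of -0.06. Of 11 ISWI and CHD partners, Ash2l and Wdr5 had -0.14 and -0.13 (0.199 and 0.206), with a median of -0.02. Of 13 NuRD partners and recruiters, the repressor gene Bcl6 had 0.47 (0.0751) and Zfpm1, which brings NuRD to GATA factors, -0.49 (0.153), with a median of -0.03. The H2A.Z genes H2afz and H2afv had -0.08 and -0.07, and 12 further SNF2-family ATPases had a median of 0.01, with Rad54l2 at -0.14 (0.225).

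Markers of other blood cells differed between the groups, and in bulk RNA fewer cells of a type and less RNA per cell cannot be told apart. Summed mature neutrophil markers (13 genes) reached 7582 to 9708 CPM in the knockout libraries and 3119 to 6021 CPM in the controls. By edgeR 6 of 13 were higher, and 9 did not overlap between the groups. S100a8, S100a9, Camp and Ngp made up most of these sums, and of them only Ngp was called. S100a9 had 737 to 2783 CPM over the libraries and exceeded Kit in each. Ly6a, at 12.4 to 22.3 CPM, lay below the median of all genes tested, 33.3 CPM. The name LSK is the labels' own, and RNA does not measure the surface proteins of the gate. Mmp8, Mmp9, Retnlg and Cxcr2 overlapped, at log2 fold changes of 0.02, -0.14, 0.35 and 0.21. The neutrophil median was 0.83 by group alone and 0.78 under the sex term, which rests on 1 control. Monocyte, macrophage and dendritic cell markers (14 genes) summed to 2534 to 3192 against 1583 to 1969 CPM, with 5 of 14 higher. Mast cell and basophil markers (8 genes) summed to 299 to 404 against 483 to 746 CPM, with 3 of 6 tested lower. Most of that sum was Gata2, which was called, and Prss34, which overlapped and was not (edgeR adjusted p = 0.184). Of the 6 tested, 5 were negative, and Fcer1a had a log2 fold change of 0.24. Erythroblast markers (12 genes, 534 to 1100 against 478 to 861 CPM) had 6 of 12 higher and 2 with a negative log2 fold change, and their sums overlapped. Hba-a1 and Hba-a2, both called, had identical values in every library and are not separate measurements. Most of the sum was Car2, Tfrc and Ermap, which were not called. Hbb-bs had 36.4, 56.2 and 109.8 CPM in the knockout libraries and 4.98, 4.16 and 5.58 CPM in the controls. B and plasma cell markers (11 genes) summed to 41.2 to 49.1 against 44.6 to 52.7 CPM, with overlap. T and NK cell markers (14 genes) summed to 282 to 349 against 250.2 to 328 CPM, also with overlap. Each sum leaned on 1 gene. Cd79b, most of the B cell sum in the controls, had 11.4 to 14.4 against 27.3 to 29.6 CPM. It was the 1 negative gene of 10 tested. Nkg7, most of the T and NK sum, had 153.9 to 284 CPM over the libraries and overlapped. Of 13 T and NK genes tested, 6 were negative. Lat, Lck and Cd4 were lower without overlap, and Cd3d was higher. Of 10 B and plasma cell markers tested, Blnk was higher (log2 fold change 0.68, edgeR adjusted p = 0.0364) and Cd79b lower (-1.16, 0.00263), with a list median of 0.64, and of 13 T and NK cell markers Lat was lower (-1.01, 0.00346). Stroma and endothelium markers (9 genes) summed to 152 to 163 against 169.8 to 191 CPM, without overlap, with 1 of 6 tested lower (Emcn). Most of that sum was Pecam1 (85.3 to 121 CPM over the libraries) and Vwf (30.8 to 65.3 CPM), each of which overlapped between the groups. Cdh5, Kdr, Lepr, Cxcl12, Col1a1 and Col1a2 had at most 3.98 CPM in any library and overlapped too. S phase genes summed to 3892 to 4214 against 4021 to 4233 CPM and G2 and M phase genes to 3032 to 3618 against 2906 to 3322 CPM, both with overlap. Of 18 S phase genes, Rrm2 (log2 fold change 0.46, edgeR adjusted p = 0.0307) and Ccne1 (0.68, 0.0165) were higher and Ung lower (-0.31, 0.0472), and 8 did not overlap between the groups. Over all genes tested, 8.42% were called and 31.2% did not overlap. Of 14 G2 and M phase genes, Ccnb1 had the smallest p in edgeR (adjusted p = 0.151). No marker of these lists was without reads in all 6 libraries. The part of these shifts in the differences of Mta1, Mta3, Hdac2, Chd6 and Cecr2 was not tested.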

How the data were processed

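Libraries were directional and came from polyadenylated RNA, per the labels' protocols. The authors deposited raw read counts per gene symbol, whole numbers with no normalization; STAR and mm10 are named in the submitters' processing notes, without a counting tool, annotation or strand option (not given in the sources used here). Genes whose exons overlap another symbol (Chd2, Chd4, Ruvbl2, Rbbp4 and Rbbp7 among the members) and near-identical copies may share reads.

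Counts were filtered with filterByExpr (minimum count 10, minimum total 15), scaled by TMM and tested with the quasi-likelihood F test of edgeR 4.0.16 in R 4.3.3, with the group as sole term. P-values of the 13679 genes were adjusted together by Benjamini-Hochberg, and 0.05 was the limit for a call. CPM comes from TMM-scaled counts; lengths and positions are from GENCODE M21 (GRCm38). Sex was read from Xist and Y-linked genes. Library totals are given in the results; intervals and SEs cover the spread between libraries as modelled. The lowest chi-square between libraries was 10.2 per degree of freedom, so none repeated another. The test was checked on simulated counts, with changes larger than those of all members but Cecr2, and in genes with more reads than Cecr2. The check did not cover smaller changes or lower counts.

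Per-library values are given for members with p under 0.05, X-linked, highest in their family per length, or without overlap. Of each related list, called genes or those with the smallest p are named. Members and lists were chosen with earlier results of these data known. Promoters shown were picked after values were seen. Alternatives were other scalings and filters, DESeq2 1.42.0, limma-voom (limma 3.58.1), a replicate block, a sex term, female libraries alone, each library left out, and an adjusted p under 0.1.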

Additional observations from a re-analysis of the deposited data

How the results depend on the processing

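Members called higher and lower (1 and 4) were unchanged in number with DESeq2 size factors, upper-quartile scaling and either filter. Members higher numbered 2 with DESeq2, with the replicate block and at an adjusted p under 0.1, and members higher and lower were 0 and 0 with the sex term and in female libraries alone. Leaving out each library gave 0 to 1 higher and 0 to 2 lower, and for all genes 119 to 440 higher and 171 to 544 lower. All genes higher numbered 833 with DESeq2, 7 with the sex term, 10 in female libraries and 951 at an adjusted p under 0.1; genes lower numbered 36 and 29 with the sex term and in female libraries, and 1051 at an adjusted p under 0.1. Genes higher were 45.7% of all calls, 16.3% with the sex term and 25.6% in female libraries. With the replicate block 1169 genes were higher and 1003 lower, and Chd7 was the member added (adjusted p = 0.0498, edgeR). Same-numbered libraries deviated together with correlations of 0.293, -0.0048 and 0.339, so the numbers were not taken to pair them, though replicates 1 and 3 correlated best with their own number and control replicate 2 with knockout replicate 1. Related genes called higher numbered 1 (Bcl6) in each of the fits with no filter, with DESeq2, with the replicate block and at an adjusted p under 0.1, and 0 to 1 with a library left out; those called lower numbered 0 with the sex term and in female libraries and 1 to 2 with a library left out. Their median was -0.06 with upper-quartile scaling and -0.06 to -0.03 with a library left out.

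Values near 0 changed sign. Arid2 had -0.02 with upper-quartile scaling, 0.00 with no filter and -0.03 to 0.04 with a library left out. With a library left out, Chd9 ran from -0.10 to 0.01, Ino80 from -0.03 to 0.05, Smarcad1 from -0.11 to 0.01, Rbbp4 from -0.09 to 0.04, Rsf1 from -0.07 to 0.01 and Ruvbl2 from -0.06 to 0.01. Ino80 had 0.00 with DESeq2 size factors, Hells 0.00 and Rsf1 0.01 with the sex term, and Rsf1 0.01 and the Baz2a to Baz2b ratio 0.00 in female libraries. The cause of these differences was not tested. Fits with the sex term or female libraries rest on 1 control, and leaving out a library lowers the number of samples. Low counts limit Cecr2 and Smarca1.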
